A study of Oncorhynchus mykiss with 6 samples.

Results

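The miRNAs of the miR-17-92 cluster and of its paralog clusters were followed in the small RNA of rainbow trout dorsal skin. Members were taken by name from the miRNA table, as every entry that reads miR-17, miR-18, miR-19, miR-20, miR-25, miR-92, miR-93, miR-106 or miR-363 once case and species prefix are set aside, with all arms, letters and length variants. The rule found 47 of 1426 entries, and 0 of the 47 was a miR-363. The 47 entries held 45 distinct sequences and 44 distinct count patterns, because length and species variants of a miRNA stand as entries of their own. The WR_S group was wild-type fish and the YR_S group was yellow mutant fish, which differ in body colour, and all fish were female, 12 months post hatching and from the same pond. Each group had 3 libraries, each made from 1 dorsal skin, and the study compared them to find RNAs bearing on skin immunity. The gene changed in the yellow mutant is not given in the sources used here.

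In vertebrates the miR-17-92 cluster is a polycistron, a single transcript that is cut into several miRNAs, and duplicated copies of it carry miR-106, miR-93 and miR-25. Its products fall into sub-families by the seed, the bases from position 2 to 8 that pair with target mRNAs, so miR-17, miR-20, miR-93 and miR-106 can share targets although they come from different clusters. In mammals the cluster is driven by MYC and is known for promoting proliferation and survival. From each hairpin the cell usually keeps a major arm and degrades most of a minor arm, called 5p or 3p by its side of the hairpin.

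The sequences that carry the results are given as the deposited table lists them, 5′ to 3′, with the seed in capitals. Entries of the 4 sub-families, among them the highest of each, are shown to make the shared seeds visible. In the suffixes of the names L and R give bases gained or lost at the 5′ or the 3′ end against the database sequence and ss gives a base change with its position.
ssa-miR-92a-3p: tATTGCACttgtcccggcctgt
ssa-miR-92b-3p: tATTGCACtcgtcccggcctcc
ssa-miR-25-3p: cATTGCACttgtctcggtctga
ssa-miR-17-5p_R-1: cAAAGTGCttacagtgcaggta
ssa-miR-20a-5p: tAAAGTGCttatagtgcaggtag
ssa-miR-20b-5p: cAAAGTGCtcacagtgcaggta
ssa-miR-93a-5p: aAAAGTGCtgtttgtgcaggtag
ssa-miR-106a-5p: tAAAGTGCttacagtgcaggta
ssa-miR-18a-5p: tAAGGTGCatctagtgtagtta
ssa-miR-19a-3p_R+1: tGTGCAAAtctatgcaaaactgt
ssa-miR-19c-3p: tGTGCAAAtccatgcaaaactg
ssa-miR-19d-3p: tGTGCAAAcccaagcaaaactg

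Minor arms are shown next, because 4 of these 5 were among the 6 members whose libraries did not overlap between groups.
ssa-miR-17-3-3p: aCTGCAGTggaggcacttctagc
ssa-miR-19c-5p_1ss21CT: aGTTTTGCtgctttgcatcctgc
ssa-miR-25-3-5p_R-1: aGGCGGAGacttgggcaattgc
ssa-miR-92a-4-5p: aGGTTGGGaggggtgtcagtgct
ssa-miR-92a-5p_1ss9AC: aGGTTGGGctaggcagcaatgct

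The summed counts were 4477917 to 5089802 in WR_S and 1442631, 4375641 and 4388665 in YR_S replicates 1, 2 and 3. Levels are given as CPM on TMM-scaled library sizes. A count of 3 was worth 1.95 CPM in YR_S replicate 1 and between 0.578 and 0.765 CPM elsewhere, which covers counting error only. The labelled tissue was checked with epidermis markers (5 of 5 miRNA families found), which summed to 26354 to 36672 CPM in WR_S. In YR_S replicates 1, 2 and 3 they were at 35119, 23314 and 23184 CPM. Of 31 epidermis entries tested with edgeR, 3 had a log2 fold change of YR_S over WR_S above 0, against 47.4% of all entries. Their median was -0.31, and 1 had an unadjusted p below 0.05, with lower levels in YR_S. WR_S replicate 3 stood apart, with 3404 CPM of the liver miRNA miR-122, which was at 5.86 to 51.3 CPM in the other 5 libraries, and with 12616 CPM of skeletal muscle miRNAs (4 of 4 families). Muscle miRNAs were at 2806 and 6964 CPM in the other WR_S libraries and at 4951, 2196 and 2007 CPM in YR_S. Of 20 muscle entries tested with edgeR, 9 had an unadjusted p below 0.05 and lower levels in YR_S and 1 had higher levels, with a median log2 fold change of -1.62. Of all entries tested 10.4% had such a p in either direction. Leukocyte miRNAs (4 of 4 families) ranged from 1069 to 1672 CPM in WR_S and from 968 to 1549.7 CPM in YR_S. Red cell miRNAs ranged from 33.5 to 309 CPM in WR_S and from 106.1 to 272 CPM in YR_S, with 2 of 3 families found and 0 entries for miR-486. The pigment cell miRNA miR-204 was at 18657 to 23430.1 CPM in WR_S and 36149 to 39851 CPM in YR_S, and miR-211 matched 0 entries. Of 8 miR-204 entries tested with edgeR, 8 had a log2 fold change above 0, against 47.4% of all entries. An unadjusted p below 0.05 was found for 7, all higher in YR_S, against 10.4% of all entries in either direction. The median of the 8 was 0.89, and 0 had an adjusted p below 0.05. The paper, citing earlier work, states that among pigment cells YR_S lack melanocytes and have fewer xanthophores. Whether miR-204 followed pigment cell numbers was not tested. The part of these differences in the results below was not tested. In such bulk samples fewer cells of a type and less RNA per cell cannot be told apart.

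The members took a small share of the libraries and most of it belonged to a single seed. Their sum in WR_S replicates 1, 2 and 3, the order kept throughout, was 8313, 7614 and 8850.2 CPM. In YR_S it was 11311, 9193 and 9465 CPM. Every YR_S library was therefore above every WR_S library on this scale. As a share of all counts, with no TMM scaling, the members took 0.848%, 0.801% and 0.915% in WR_S and 1.20%, 0.824% and 0.894% in YR_S, and the groups overlapped. The shared seed of the miR-25 and miR-92 3p arms made up 73.3% to 86.8% of the member counts. The seed of the miR-17, miR-20, miR-93 and miR-106 5p arms made up 7.88% to 16.6%. That of the miR-19 3p arms made up 2.13% to 6.87% and that of the miR-18 5p arms 0.777% to 1.38%. Forms of miR-19-3p, miR-25-3p and miR-92-3p with a shifted seed are not in these shares. Summed over every entry of the table with the same seed, ATTGCAC of miR-25 and miR-92 ranked 20 among 797 seeds, AAAGTGC of miR-17 ranked 44, GTGCAAA of miR-19 ranked 67 and AAGGTGC of miR-18 ranked 112. Only GTGCAAA and CGCAATG (miR-106-3p) held entries beyond the members, 1 predicted candidate each.

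**Figure D1:**
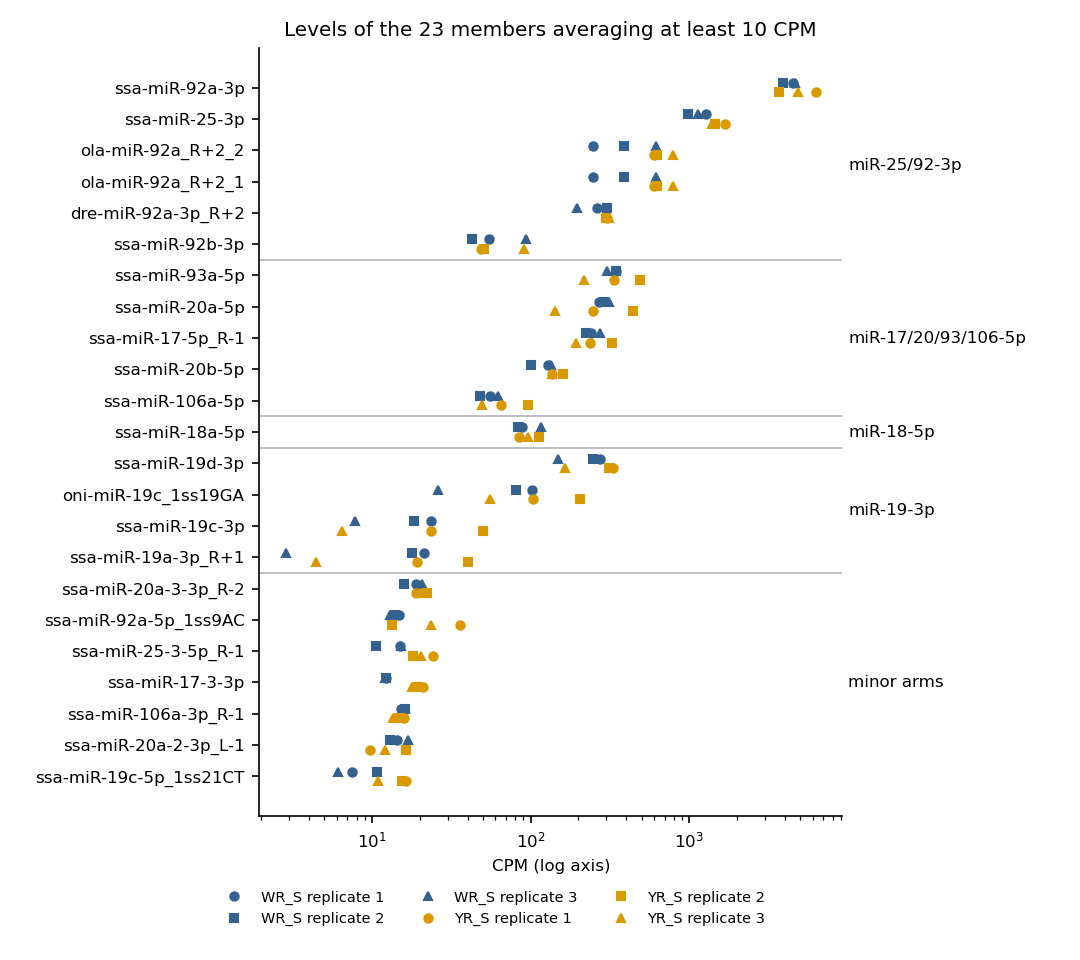
Level in CPM (log axis) of each of the 23 members averaging at least 10 CPM, 1 row per member and grouped by sub-family, with WR_S libraries in blue and YR_S libraries in orange and 1 symbol per replicate. ssa-miR-92a-3p lies highest, from 3696 to 6277 CPM, and the miR-19-3p entries have their triangles (replicate 3 of both groups) farthest to the left.

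In the comparison of YR_S with WR_S no member passed the adjustment over all entries, while most members lay slightly higher in YR_S. Of the 47 members, 42 were above 0 in at least 3 of the 6 libraries and were tested. edgeR's quasi-likelihood test called 0 of the 42 at an adjusted p below 0.05, with a smallest adjusted p of 0.468, and called 0.0% of the 1085 entries tested. At an unadjusted p below 0.05 it gave 1 member, against 10.4% of all entries. DESeq2 and limma on log2(deposited value + 1) gave 0 members both before and after adjustment. The study's thresholds add to that p a log2 fold change of 1 or more in either direction, and the same member passed them, against 8.2% of all entries. The fitted log2 fold change was above 0 in 33 of the 42, or 78.6%, against 47.4% of all entries. The median over the 42 was 0.27, and the median over all entries was -0.03. Every YR_S library was above every WR_S library in 6 of the 42, against 8.29% of all entries, and below in 0 of the 42, against 9.03%. The 5 members left untested were eca-miR-17_R+1, oan-miR-20a-5p_R+2, ssa-miR-20a-1-3p_R-1, age-miR-93_L+1 and ssa-miR-18a-3p_R-1, with at most 1.06 CPM in any library.

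The number of members above 0 moved with the scaling, and so did that of all entries. Scaling by library totals moved the median of all entries from -0.03 to -0.13, and 29 of 42 members (69.0%) were then above 0, against 39.3% of all entries. The members' count was the same with the authors' factors and with RLE scaling, and limma with a pseudocount of 1 gave 28 (66.7%, against 37.1% of all entries). Relative to the median of all entries the members' median was 0.30 higher with TMM, 0.31 higher with library totals and 0.30 higher with the authors' factors and with RLE scaling. With library totals 3 members lay above without overlap, against 5.25% of all entries, and 1 member, abu-miR-106, lay below, against 10.9% of all entries. The 3 above were ssa-miR-17-3-3p, ssa-miR-25-3-5p_R-1 and ssa-miR-92a-4-5p, all minor arms. Without WR_S replicate 3, the library with liver and muscle miRNAs, 25 of 42 members were above 0 against 42.1% of all entries, with medians of 0.11 and -0.11. Without YR_S replicate 2, 25 of 41 were, against 40.9%, with medians of 0.17 and -0.14. A list of other miRNAs tied to the cell cycle (14 of 19 families found), among them the let-7, miR-15, miR-16 and miR-34 families, had 86 of 164 tested entries above 0 in the main test, with a median of 0.01. Of all entries 47.4% were above 0, with a median of -0.03. On the list 2 entries were higher and 5 lower at an unadjusted p below 0.05, against 10.4% of all entries in either direction.

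**Figure D2:**
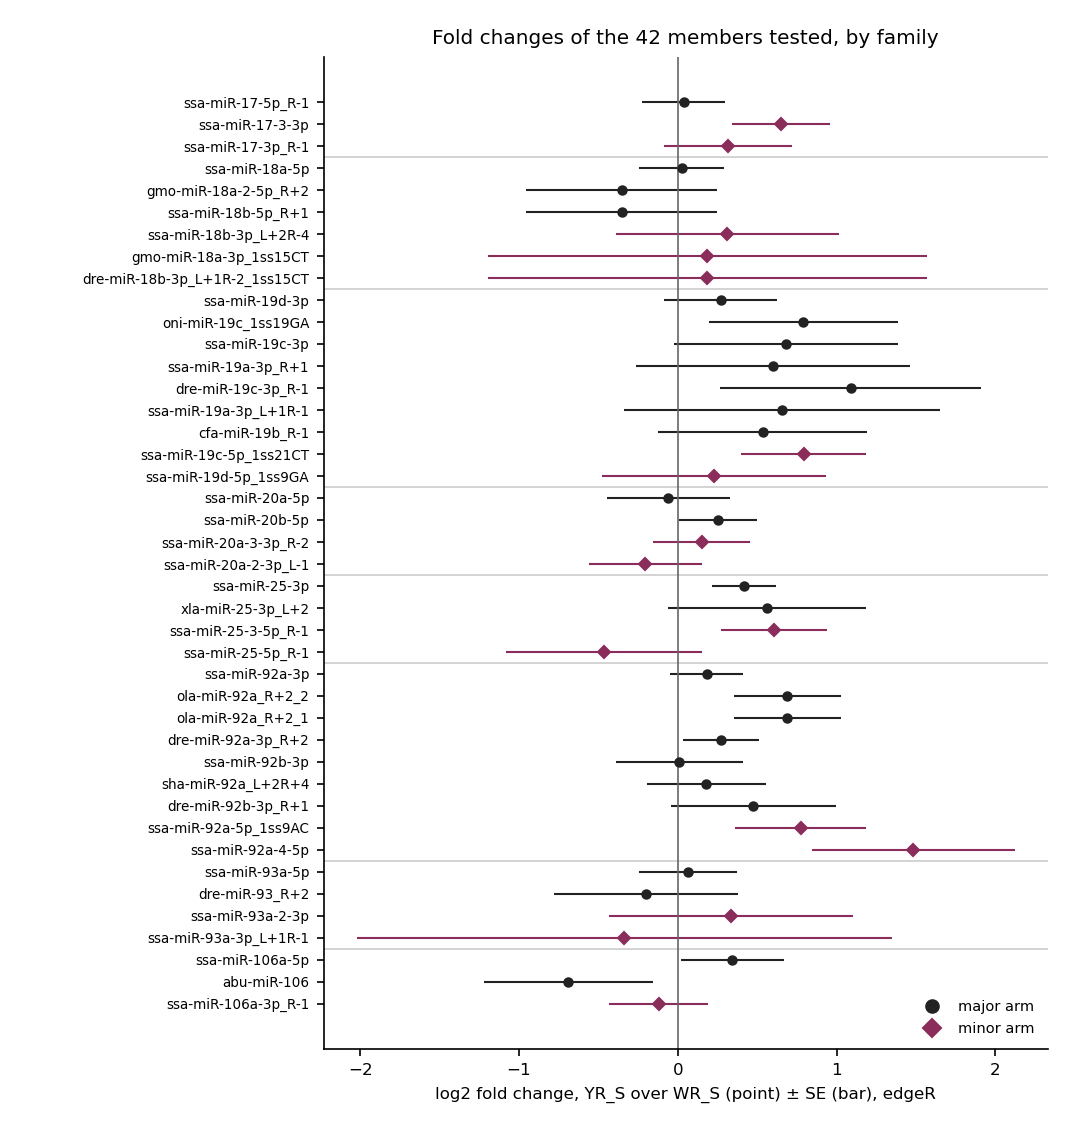
Log2 fold change of YR_S over WR_S (points) with its SE (bars) from edgeR for each of the 42 members tested, ordered by family number, with major arms as black circles and minor arms as purple diamonds. Points lie right of 0 for 33 members, and the farthest right is ssa-miR-92a-4-5p at 1.48.

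Entries of 1 miRNA divide reads among them, so counts were also summed over each seed and tested again. The members carried 19 seeds, of which 18 were tested among 568. edgeR called 0 of the 18 at an adjusted p below 0.05, as it called 0.0% of all seeds, and DESeq2 also called 0 of the 18. At an unadjusted p below 0.05 both tools gave 1 of the 18, GGTTGGG of the miR-92-5p arms, against 10.4% of all seeds in edgeR. Of the 18 seeds 16 were above 0, against 46.7% of all seeds, with a median of 0.34 against -0.06. In 3 of the 18, all on minor arms, the YR_S libraries lay above the WR_S libraries without overlap, against 8.1% of all seeds. On library totals 12 of the 18 were above 0, with a median of 0.21 against -0.18 over all seeds.

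The seed of miR-25 and miR-92, the latter the last miRNA in the order of the miR-17-92 transcript, was the most abundant of the sub-families. The WR_S libraries held 6583, 5988 and 7316 CPM of it, and the YR_S libraries 9514, 6738 and 8212 CPM. YR_S replicate 2 fell inside the WR_S range and the other YR_S libraries lay above it. The log2 fold change was 0.33 ± 0.20 SE (edgeR, adjusted p = 0.702). Without YR_S replicate 1, the shallowest library, it was 0.095.

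Within that seed miR-25 was the member whose groups separated. ssa-miR-25-3p, which in alpaca melanocytes is reported to act on the pigment cell regulator MITF, was at 1267, 975 and 1133 CPM in WR_S and at 1682, 1442 and 1385 CPM in YR_S. All YR_S libraries were above all WR_S libraries on the TMM scale, whereas the groups overlapped on library totals. Its log2 fold change was 0.42 ± 0.20 SE (edgeR, adjusted p = 0.573), and it stayed between 0.23 and 0.46 over all alternatives.

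ssa-miR-92a-3p, an miRNA known from mammalian endothelium, ranked 43 of the 1426 entries. It was at 4502, 3890.4 and 4665 CPM in WR_S and at 6277, 3696 and 4838 CPM in YR_S. YR_S replicate 2 was the lowest and YR_S replicate 1 the highest of all 6, and the log2 fold change was 0.18 ± 0.23 SE (edgeR, adjusted p = 0.868), or -0.12 without YR_S replicate 1. Its paralog ssa-miR-92b-3p was at 54.3, 42.9 and 93.2 CPM in WR_S and at 48.8, 50.7 and 91.4 CPM in YR_S. Replicate 3 of each group was the highest, and the group means of 63.5 ± 26.4 and 63.6 ± 24.03 CPM (SD, n = 3) were closer than the spread within either group.

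Forms of miR-92a-3p with a longer 3′ end formed a changing part of its total. The table held the reference form, a pair of entries with 1 further base that differ only in that base, and an entry with 2 further bases.
ssa-miR-92a-3p: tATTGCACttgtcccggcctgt
ola-miR-92a_R+2_1: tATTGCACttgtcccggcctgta
ola-miR-92a_R+2_2: tATTGCACttgtcccggcctgtt
dre-miR-92a-3p_R+2: tATTGCACttgtcccggcctgtaa
The pair had identical counts in all 6 libraries although their last bases differ, so the deposited values do not separate them. Together they took 9.45%, 15.6% and 20.1% of the CPM of the 4 entries in WR_S and 15.4%, 23.8% and 23.4% in YR_S. WR_S replicate 1 was lowest, YR_S replicates 2 and 3 were highest, and the groups overlapped. Each of the pair was at 248, 387 and 613 CPM in WR_S and 599, 625 and 789 CPM in YR_S, a log2 fold change of 0.69 ± 0.34 SE (edgeR, adjusted p = 0.59). The entry with 2 further bases took 3.204% to 6.09% of the 4 entries in WR_S and 3.91% to 5.67% in YR_S.

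**Figure D3:**
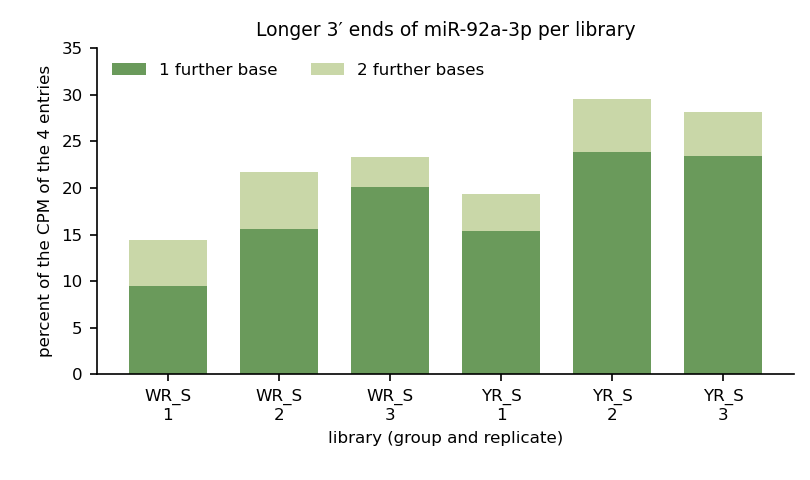
Share of the CPM of the 4 miR-92a-3p entries that carried 1 further base (dark) or 2 further bases (light) at the 3′ end, in percent, stacked, 1 bar per library. The dark part is smallest in WR_S replicate 1 at 9.45% and largest in YR_S replicate 2 at 23.8%.

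The miR-17, miR-20, miR-93 and miR-106 5p arms, the sub-family best known for promoting cell cycle entry in mammals, overlapped between groups. They spread more widely within YR_S than within WR_S. Their seed AAAGTGC summed to 1059, 1019 and 1091 CPM in WR_S and to 1032, 1525 and 746 CPM in YR_S. The WR_S libraries lay close together, while YR_S replicate 2 was the highest and YR_S replicate 3 the lowest of all. The SD was 36.3 CPM in WR_S and 394 CPM in YR_S (n = 3), and the log2 fold change was 0.08 ± 0.28 SE (edgeR, adjusted p = 0.978). The highest of all libraries held 2.04 times the lowest. The median of this ratio was 2.14 over the 488 single entries averaging at least 10 CPM and above 0 in every library.

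The same order within YR_S appeared in the largest entries of this seed. ssa-miR-93a-5p, named for a miRNA of the cluster that also carries miR-25, was at 344, 346 and 303 CPM in WR_S and at 333, 487 and 217 CPM in YR_S. ssa-miR-20a-5p, named for a miRNA of the miR-17-92 cluster, was at 270.5, 288 and 311 CPM in WR_S and at 247, 444 and 143 CPM in YR_S. The log2 fold change of miR-20a was -0.06 ± 0.39 SE. ssa-miR-17-5p_R-1, which names the cluster, was at 240.1, 223.2 and 272 CPM in WR_S and at 237, 323 and 194 CPM in YR_S. In all 3 the WR_S libraries lay between YR_S replicate 2 and YR_S replicate 3.

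ssa-miR-106a-5p was at 55.3, 48.0 and 62.6 CPM in WR_S and at 64.8, 96.2 and 49.2 CPM in YR_S, with a log2 fold change of 0.34 ± 0.32 SE (edgeR, adjusted p = 0.849). ssa-miR-20b-5p, a paralog of miR-20a, varied less, at 129, 101 and 134 CPM in WR_S and 137, 161 and 136 CPM in YR_S. Its YR_S libraries lay above its WR_S libraries on the TMM scale and overlapped them on library totals. Among the scarce entries of the seed, abu-miR-106 was lower in YR_S, with 7.32, 5.10 and 4.66 CPM in WR_S and 2.60, 5.36 and 2.41 CPM in YR_S, the lowest log2 fold change of the members at -0.69 ± 0.53 SE (edgeR, adjusted p = 0.802). dre-miR-93_R+2 was at 4.13 to 11.6 CPM in WR_S and 3.25 to 11.1 CPM in YR_S.

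miR-18, a relative of miR-17 with a seed of its own, was the steadiest of the sub-families. Its seed AAGGTGC summed to 97.0, 91.7 and 121.8 CPM in WR_S and to 87.9, 121.8 and 100.5 CPM in YR_S. The means of 104 ± 16.1 and 103 ± 17.2 CPM (SD, n = 3) differed by less than the spread within the groups, and the log2 fold change was 0.03 ± 0.27 SE (edgeR, adjusted p = 0.994). ssa-miR-18a-5p made up nearly all of it, at 83.3 to 117 CPM in WR_S and 84.0 to 112 CPM in YR_S. Relative to the miR-17 seed, miR-18 was at 9.16%, 9.01% and 11.2% in WR_S and 8.52%, 7.99% and 13.5% in YR_S, highest in YR_S replicate 3.

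miR-19, which the miR-17-92 transcript carries in more than a single copy in mammals, varied most between libraries. Its seed GTGCAAA, over the 6 members that carry it, summed to 431, 374 and 188 CPM in WR_S and to 485.6, 632 and 236 CPM in YR_S. Replicate 3 was the lowest library of each group, and over all 6 libraries the highest held 3.36 times the lowest. The same ratio was 2.04 for the miR-17 seed, 1.59 for the miR-92 seed and 1.39 for the miR-18 seed. Its median was 2.14 over the 488 single entries averaging at least 10 CPM and above 0 in every library. The miR-92 seed sum includes miR-25, which duplicated copies of the cluster carry. A ratio of the miR-19 seed to it therefore does not compare products of a single transcript, and which entries share a transcript was not tested. The miR-19 seed stood at 6.54%, 6.25% and 2.57% of the miR-92 seed in WR_S and at 5.10%, 9.37% and 2.87% in YR_S. Both ratios of replicate 3 lay below those of all other libraries. The study describes no pairing of the fish by replicate number.

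**Figure D4:**
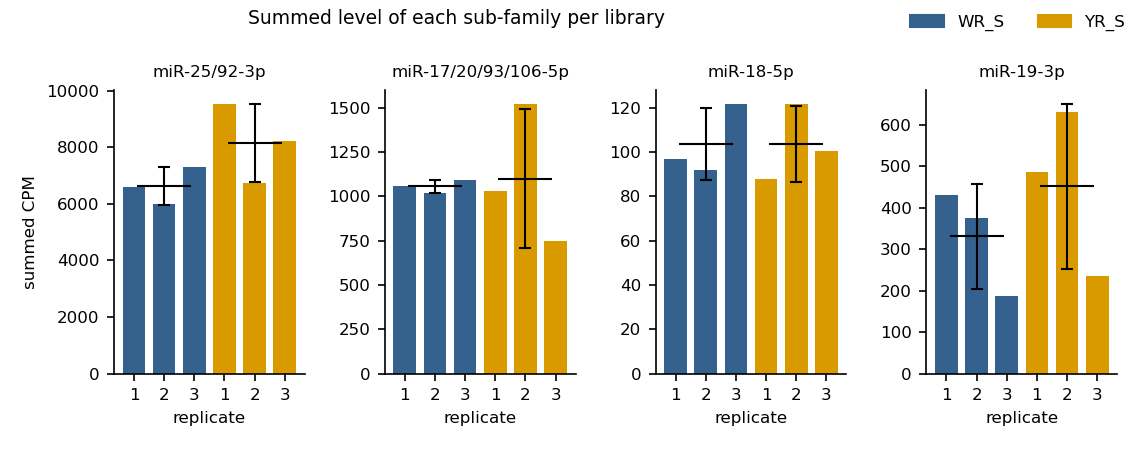
Summed CPM (axis from 0) of the members of each of the 4 main seeds, 1 bar per library, blue for WR_S and orange for YR_S, with black lines for the group mean ± SD (n = 3). In the miR-19-3p panel the third bar of each group is lowest, at 188 and 236 CPM, which is not so in the miR-25/92-3p and miR-18-5p panels.

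All 7 miR-19-3p entries were lowest in replicate 3 of both groups. Among the 488 entries of the table averaging at least 10 CPM and above 0 in every library, 19.7% were lowest in these same libraries, and among the 23 such members 7 were. These were 4 miR-19-3p entries together with ssa-miR-93a-5p, ssa-miR-19c-5p_1ss21CT and ssa-miR-17-3-3p. Over all members 13 were lowest in these libraries. ssa-miR-19d-3p, the most abundant, was at 275, 249 and 147.8 CPM in WR_S and at 331, 314 and 165 CPM in YR_S. oni-miR-19c_1ss19GA was at 103, 81.1 and 26.05 CPM in WR_S and at 103, 203.5 and 55.7 CPM in YR_S. In ssa-miR-19c-3p the replicate 3 libraries were at 7.87 and 6.43 CPM and the others at 18.4 to 50.2 CPM.

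The drop was steepest in miR-19a. ssa-miR-19a-3p_R+1 was at 21.4, 17.8 and 2.86 CPM in WR_S and at 19.2, 40.0 and 4.46 CPM in YR_S. Its form starting a base earlier, which moves the seed to TGTGCAA, was at 5.49, 9.34 and 0.529 CPM in WR_S and at 6.18, 15.3 and 1.81 CPM in YR_S. Its value in WR_S replicate 3 was below the 0.635 CPM that 3 counts stand for there.
ssa-miR-19a-3p_R+1: tGTGCAAAtctatgcaaaactgt
ssa-miR-19a-3p_L+1R-1: tTGTGCAAatctatgcaaaact

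Other measures of the libraries low in miR-19 were as follows, and their part in it was not tested. Liver and muscle miRNAs were high in WR_S replicate 3 and were at 13.3 and 2007 CPM in YR_S replicate 3. The median GC content was 39.1% for the miR-19-3p entries, 43.5% for the entries of the miR-17 seed and 52.2% for those of the miR-92 seed. Over 495 entries the log2 level was taken relative to the mean of all 6 libraries and set against GC content. It rose with GC content in YR_S replicates 1 and 3 (Pearson r across entries of 0.31 and 0.26) and fell in YR_S replicate 2 and WR_S replicate 2 (-0.34 and -0.23). It was near level in WR_S replicates 1 and 3 (-0.0083 and 0.065). YR_S replicate 1, with the highest r, held 485.6 CPM of the miR-19 seed, and YR_S replicate 2, with the lowest r, held 632 CPM.

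Between groups the miR-19 entries leaned toward YR_S without a call. All 9 tested entries of the family were above 0, under every scaling run, with a median log2 fold change of 0.65, and the seed was at 0.46 ± 0.43 SE (edgeR, adjusted p = 0.849). Of the 7 entries of the 3p arm, 3 were above 0 without YR_S replicate 2, with a median of -0.21, and 4 without WR_S replicate 3, with a median of 0.12. The seed's log2 fold change was then 0.042 and 0.14. A correction for GC content, chosen after seeing the data, left it at 0.48.

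The minor arms, the hairpin sides that are mostly degraded, amounted to 1.40% to 1.63% of the member counts. They summed to 126, 122.2 and 124 CPM in WR_S and to 173, 149 and 154 CPM in YR_S. The groups did not overlap on this scale nor on library totals, where WR_S ranged from 128 to 129 CPM and YR_S from 133.1 to 185 CPM. Among all single entries tested, YR_S lay above WR_S without overlap in 8.29% on the TMM scale and in 5.25% on library totals. Of 18 minor-arm entries 16 were tested and 12 were above 0, against 47.4% of all entries. Their median was 0.27, the same as the median of the 26 major-arm entries tested, against -0.03 over all entries. With 3 libraries per group an exact two-sided permutation test cannot go below p = 0.1, so that test could not pass at 0.05 for any sum.

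Most of the difference lay in the 5p arms of miR-19, miR-25 and miR-92. They summed to 47.2, 42.7 and 40.9 CPM in WR_S and to 85.3, 55.2 and 69.1 CPM in YR_S, and the groups did not overlap on library totals either. The 3p arms of miR-17, miR-18, miR-20, miR-93 and miR-106 summed to 78.7, 79.5 and 82.8 CPM in WR_S and to 88.2, 93.3 and 85.2 CPM in YR_S, and on library totals these overlapped.

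The miR-92-5p arms held the member with the lowest p. ssa-miR-92a-4-5p was at 2.31, 0.850 and 2.54 CPM in WR_S and at 3.25, 5.10 and 7.47 CPM in YR_S. All YR_S libraries were above all WR_S libraries, from counts of 12, 4 and 12 in WR_S and 5, 20 and 31 in YR_S. Its log2 fold change was 1.48 ± 0.64 SE (edgeR, unadjusted p = 0.0483, adjusted p = 0.468). The more abundant ssa-miR-92a-5p_1ss9AC, with the same seed, was at 14.8, 13.9 and 13.0 CPM in WR_S and at 35.8, 13.4 and 23.6 CPM in YR_S. YR_S replicate 2 lay within the WR_S range and the other YR_S libraries above it.

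Summed, the seed GGTTGGG was at 17.1, 14.8 and 15.6 CPM in WR_S and at 39.1, 18.5 and 31.1 CPM in YR_S, a log2 fold change of 0.91 ± 0.39 SE (edgeR, unadjusted p = 0.0463, adjusted p = 0.469). On library totals the groups overlapped, at 15.5 to 17.5 CPM in WR_S and 16.6 to 41.6 CPM in YR_S. The log2 fold change was 0.56 without YR_S replicate 1, which is also the library highest in miR-92a-3p. As a share of both arms, miR-92-5p was at 0.321%, 0.293% and 0.251% in WR_S and at 0.496%, 0.347% and 0.453% in YR_S. This share, which no scaling between libraries can move, was higher in every YR_S library. The lowest YR_S share, 0.347% in replicate 2, lay close to the highest WR_S share, 0.321% in replicate 1. The counts of ssa-miR-92a-4-5p and ssa-miR-92a-5p_1ss9AC were 20 and 52.5 in the former and 12 and 77 in the latter. The arm shares of miR-18, miR-19, miR-20, miR-25, miR-93 and miR-106 overlapped between the groups. How often such a share separates over all miRNAs was not tested.

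The minor arm of miR-17 also separated between the groups. ssa-miR-17-3-3p was at 12.3, 12.3 and 12.1 CPM in WR_S and at 20.8, 19.1 and 17.8 CPM in YR_S. The counts behind these levels were 64, 58 and 57 in WR_S and 32, 75 and 74 in YR_S. The SD of 0.146 CPM in WR_S was smaller than the counting error of such counts. All YR_S libraries were above all WR_S libraries on both scales. The log2 fold change was 0.65 ± 0.31 SE (edgeR, adjusted p = 0.572), and it stayed between 0.49 and 0.65 over all alternatives. The miR-17-3p arm took 6.72%, 7.81% and 7.06% of both miR-17 arms in WR_S and 10.8%, 7.98% and 11.8% in YR_S. The summed miR-17-5p entries did not separate, and which entries share a hairpin was not tested. All YR_S shares were above all WR_S shares, and YR_S replicate 2, the library highest in miR-17-5p, was the lowest of the YR_S libraries. Its 7.98% lay close to the 7.81% of WR_S replicate 2. The counts of ssa-miR-17-3-3p and ssa-miR-17-3p_R-1 were 75 and 35 in the former and 58 and 31 in the latter. Whether these shares differ beyond counting error was not tested. Of the families, only miR-17 and miR-92 separated in this share.

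ssa-miR-25-3-5p_R-1 was at 15.02, 10.6 and 15.2 CPM in WR_S and at 24.1, 18.1 and 20.5 CPM in YR_S. Its groups did not overlap on either scale, and its log2 fold change was 0.61 ± 0.33 SE (edgeR, adjusted p = 0.628). The arm share of miR-25 did not separate, at 1.52% to 1.59% in WR_S and 1.36% to 1.73% in YR_S, and the major arm was also higher in YR_S. ssa-miR-19c-5p_1ss21CT was at 7.51, 10.8 and 6.14 CPM in WR_S and at 16.3, 15.6 and 10.8 CPM in YR_S. Its lowest YR_S library and its highest WR_S library were both at 10.8 CPM when rounded, and its log2 fold change was 0.79 ± 0.40 SE (edgeR, adjusted p = 0.606). The miR-19-5p share of both arms was highest in replicate 3 of each group, at 3.99% and 5.37%, where miR-19-3p was lowest.

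**Figure D5:**
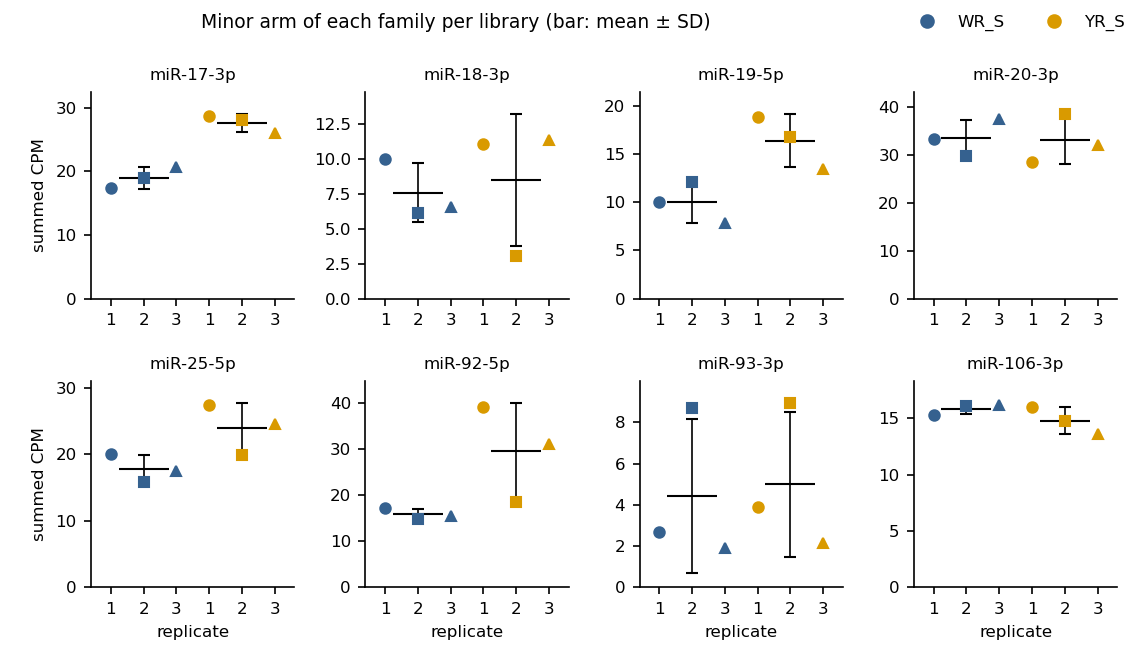
Summed CPM (axes from 0) of the minor arm of each family, 1 point per library with 1 symbol per replicate, blue for WR_S and orange for YR_S, and black lines for the group mean ± SD (n = 3). The points of the groups are apart for miR-17-3p (17.3 to 20.6 against 26.04 to 28.6 CPM), miR-19-5p and miR-92-5p, and they overlap in the other 5 panels.

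The other minor arms did not separate. miR-106-3p, which is ssa-miR-106a-3p_R-1, was almost constant at 15.3 to 16.2 CPM in WR_S and 13.6 to 15.9 CPM in YR_S, and miR-106 had the highest minor-arm share, 12.7% to 23.2%. ssa-miR-20a-3-3p_R-2, with the same seed as ssa-miR-17-3-3p, was at 15.8 to 20.5 CPM in WR_S and 18.9 to 22.2 CPM in YR_S. ssa-miR-20a-2-3p_L-1, which lacks the first base and so carries the seed TGCAGTG, was at 13.1 to 16.9 and at 9.76 to 16.3 CPM. ssa-miR-93a-2-3p was at 1.91 to 5.52 CPM in WR_S and 1.21 to 7.65 CPM in YR_S, highest in replicate 2 of both groups. ssa-miR-93a-3p_L+1R-1 was above 0 in 3 libraries, gmo-miR-18a-3p_1ss15CT in 4 and ssa-miR-19d-5p_1ss9GA in 6, with at most 3.19 CPM. ssa-miR-18b-3p_L+2R-4 was at 10.02, 2.97 and 4.31 CPM in WR_S and at 11.1, 2.38 and 8.60 CPM in YR_S.

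Forms named for further bases at the 5′ end, not all of which shift the seed, were scarce. The forms of miR-25-3p and miR-92a-3p with 2 further bases are shown because they exchange the most abundant seed for another.
xla-miR-25-3p_L+2: aACATTGCacttgtctcggtctga
sha-miR-92a_L+2R+4: aATATTGCacttgtcccggcctgt
xla-miR-25-3p_L+2 was at 1.27 to 3.85 CPM in WR_S and 3.13 to 4.08 CPM in YR_S. sha-miR-92a_L+2R+4 was at 6.99 to 9.05 CPM in WR_S and 8.16 to 11.1 CPM in YR_S. Both ranges overlapped between the groups. All members named for a gained 5′ base summed to 14.9 to 29.2 CPM in WR_S and 27.0 to 31.5 CPM in YR_S, lowest in WR_S replicate 3. This sum includes age-miR-93_L+1 and dre-miR-18b-3p_L+1R-2_1ss15CT, whose seeds AAAGTGC and CTGCCCT are also carried by members without a gained 5′ base. It is therefore not a total of forms with a shifted seed.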

How the data were processed

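Small RNA libraries from 3 WR_S and 3 YR_S dorsal skins were made with a TruSeq kit and sequenced single-end. The authors filtered tags with ACGT101-miR, matched them to miRBase and predicted candidates with Mireap. They deposited an estimated count per entry, in which shared reads are divided (36.8% of values above 0 were not whole, tolerance 1e-06), and a normalized signal, which the authors scaled by a factor per library. How reads were divided among entries of a family is uncertain. Columns with the authors' group means, log2 ratios and p-values were not used, and 1 line naming no miRNA was left out. Genome positions are not given here.

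Estimated counts were rounded and tested with edgeR 4.0.16 (quasi-likelihood, two-sided, TMM, Benjamini-Hochberg over all 1085 entries above 0 in at least 3 libraries), and again after summing over the bases 2 to 8 (568 seeds). SE is the fold change over the root of F. The table's header names a t-test for the authors' p-values and the study's methods name DESeq2. Alternatives were DESeq2 1.42.0, limma 3.58.1 on log2(deposited signal + 0.5, 1 or 5), RLE, the authors' factors, library totals, other filters, collapsed entries, a robust prior, the replicate number as a block and each library left out. The common biological coefficient of variation of the main fit was 0.469, beside which the test estimates a spread for each entry. The test was checked on simulated data with planted log2 fold changes of 1 or more in either direction. Most members did not reach that size, and the check does not cover smaller changes. Each p-value rests on only 3 fish per group, with a spread estimated in part from the other entries. An arm missing from a name was taken from entries sharing 14 bases. Members and lists were chosen with earlier results of these data known. Named members are the highest of each family and arm and of each seed, any at an unadjusted p below 0.05, and the 3 largest and 3 smallest fold changes from 10 CPM upward; ssa-miR-20b-5p, ssa-miR-92b-3p, ssa-miR-19c-3p, ssa-miR-19a-3p_R+1 and dre-miR-92a-3p_R+2 were named after their values were seen. R 4.3.3 and Python 3.11.15 were used.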

Additional observations from a re-analysis of the deposited data

How the results depend on the processing

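Members called at an adjusted p below 0.05 stayed at 0 under every alternative, as did their seeds, with a smallest adjusted p of 0.274 for a named fold change. Of 686 values of 38 named fold changes over the alternatives, 582 kept their direction and 104 turned it, all of them uncalled, and 19 fold changes never turned. The cause was not tested for any change given here. Counts of a few CPM limit the scarce members.

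Members at an unadjusted p below 0.05, 1 in the main test, were 0 with DESeq2, RLE scaling, the authors' factors, library totals, identical counts kept once, identical sequences summed, limma at each pseudocount, a mean of at least 10 CPM, no filter and a robust prior. With the replicate number as a block they were 2 (the identical ola-miR-92a_R+2_1 and ola-miR-92a_R+2_2), against 103 of all 1085 entries. Without single libraries they were 0 to 2, against 67 to 127 of the 998 to 1072 entries tested. The study describes no pairing of the samples by number. Deviations of same-numbered libraries from their group means correlated at 0.24, -0.027 and 0.33 over 495 entries. Those of differently numbered libraries of the 2 groups correlated at -0.30 to 0.16. Whether same-numbered libraries shared a source of deviation was not tested. Seeds at that p, 1 in the main test, were 0 on library totals, at a mean of at least 10 CPM and with the block. Without single libraries they were 0 to 1, against 35 to 73 of the 514 to 557 seeds tested. DESeq2 called 36 entries and 12 seeds of the whole table, edgeR 0 and 0. At a mean of at least 10 CPM 16 of 23 members and 7 of 10 seeds were above 0. Seeds above 0 were 10 to 15 without single libraries, lowest at 10 of 17 without YR_S replicate 2, against 36.4% of all seeds there.

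Log2 fold changes that turned were those of ssa-miR-18a-5p, ssa-miR-17-5p_R-1 and ssa-miR-93a-5p, near 0 in the main test. With DESeq2 they became -0.041, -0.036 and -0.016, with RLE scaling -0.045, -0.036 and -0.016, with the authors' factors -0.089, -0.080 and -0.057, with identical counts kept once -0.11, -0.10 and -0.083, and with identical sequences summed -0.12, -0.11 and -0.095. On library totals they became -0.084, -0.067 and -0.044, in limma with a pseudocount of 0.5 -0.080, -0.097 and -0.12, of 1 -0.080, -0.097 and -0.12, and of 5 -0.079, -0.097 and -0.12. At a mean of at least 10 CPM they became -0.037, -0.026 and -0.0052 and without the filter -0.055, -0.048 and -0.030. With the block ssa-miR-93a-5p became -0.0099, ssa-miR-93a-3p_L+1R-1 0.68, gmo-miR-18a-3p_1ss15CT -0.25 and the seed TGCAGTG -0.0025. ssa-miR-93a-3p_L+1R-1 became 0.55 and 0.30 in limma with a pseudocount of 0.5 and 1. gmo-miR-18a-3p_1ss15CT became -0.069 with identical sequences summed and -0.23, -0.18 and -0.062 in limma with a pseudocount of 0.5, 1 and 5.

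The seeds CGCAATG (miR-106-3p) and TGCAGTG (miR-17 and miR-20 3p) became -0.022 and -0.0032 with DESeq2, -0.021 and -0.014 with RLE scaling, -0.034 and -0.0060 with the GC correction, -0.12 and -0.13 on library totals, and -0.030 and -0.033 at a mean of at least 10 CPM. CGCAATG became -0.096 with members only. AAAGTGC and AAGGTGC became -0.049 and -0.11 on library totals, and AAGGTGC -0.010 at a mean of at least 10 CPM.

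Without single libraries the ranges of the turned fold changes were -0.74 to 0.14 for dre-miR-93_R+2, -0.37 to 1.29 for ssa-miR-19a-3p_L+1R-1, -0.10 to 0.46 for ssa-miR-19d-3p, -0.57 to 0.16 for ssa-miR-20a-5p, -0.15 to 0.063 for ssa-miR-18a-5p, -0.056 to 0.52 for ssa-miR-19d-5p_1ss9GA, -0.18 to 0.11 for ssa-miR-17-5p_R-1 and -0.12 to 0.97 for ssa-miR-18b-3p_L+2R-4. They were -0.054 to 0.27 for sha-miR-92a_L+2R+4, -0.12 to 0.35 for ssa-miR-92a-3p, -0.035 to 0.11 for ssa-miR-20a-3-3p_R-2, -0.53 to 0.75 for ssa-miR-93a-2-3p, -0.27 to 0.23 for ssa-miR-93a-5p and -1.62 to 0.95 for gmo-miR-18a-3p_1ss15CT. For seeds they were -0.34 to 0.26 for AAAGTGC, -0.22 to 0.10 for AAGGTGC, -0.14 to 0.020 for CGCAATG and -0.25 to 0.089 for TGCAGTG.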

Other observations

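Predicted candidates outside the named families held whole members. PC-3p-7431_353 is ssa-miR-19d-3p with 1 further base at the 3′ end and was at 19.8, 10.4 and 8.47 CPM in WR_S replicates 1, 2 and 3 and at 26.04, 19.4 and 12.1 CPM in YR_S. It was lowest in replicate 3 of both groups, as the miR-19-3p entries were, and took 3.94% of the CPM of their seed. PC-3p-21863_101 is ssa-miR-106a-3p_R-1 with 2 further bases and was at 4.02 to 4.62 CPM in WR_S and 5.06 to 5.21 CPM in YR_S. PC-5p-78699_9 holds ssa-miR-17-5p_R-1 after 2 further bases at the 5′ end and was above 0 in 2 libraries, with at most 1.06 CPM. These entries fall outside the naming rule of the members, and a total over the names alone leaves them out.
PC-3p-7431_353: tGTGCAAAcccaagcaaaactgt
PC-3p-21863_101: cCGCAATGtgagcacttctgtct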
